A study of Mus musculus with 6 samples.

Results

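The 10 genes described here encode the enzymes that turn cholesterol into conjugated bile acids in the liver: Cyp7a1, Cyp7b1, Cyp8b1, Cyp27a1, Hsd3b7, Akr1d1, Amacr, Acox2, Slc27a5 and Baat. They were chosen by gene symbol, as 10 of the 56847 Ensembl genes in the deposited tables. Their RNA was measured by poly(A) RNA-seq in 3 liver libraries from mice fed CDAHFD and 3 from mice fed a normal diet. CDAHFD is a high-fat diet without choline and with defined amino acids, on which rodents develop steatohepatitis, a fatty and inflamed liver. No genotype, strain, sex, age or feeding time is given in the labels. Whether the 3 libraries of a diet are 3 animals is not stated either, and the p-values cover only the spread among these libraries, which may be technical. The series asks about ALDH18A1 in steatohepatitis, and its design text names lipid metabolism, of which bile acid synthesis is the branch that disposes of cholesterol.

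Bile acids are made in hepatocytes along a main route and an alternative route. In the main route CYP7A1 carries out the first and rate-limiting step in the endoplasmic reticulum. In the alternative route CYP27A1 in mitochondria first oxidises the cholesterol side chain and CYP7B1 then hydroxylates the resulting oxysterol. HSD3B7, CYP8B1 and AKR1D1 remodel the sterol rings, AMACR and ACOX2 help shorten the side chain in peroxisomes, and SLC27A5 and BAAT join the acid to coenzyme A and then to taurine or glycine.

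RNA of most enzymes of the pathway was lower on CDAHFD, from the first hydroxylations to conjugation. Of the 9 enzyme genes with counts, 8 fell and 0 rose by edgeR's quasi-likelihood test at an adjusted p of 0.05, where 52.1% of all 14215 genes tested were called, 23.5% lower and 28.5% higher. The count of rises was 0 also at an unadjusted p under 0.05, with DESeq2 and with limma-voom. The falls ran from 1.63-fold for Amacr to 7.30-fold for Cyp7b1. Of the 9 genes tested, 4 were called and at least 2-fold lower, as were 3.58% of all genes tested. The median log2 change of the 9 genes was -0.91, and that of all genes tested was 0.013. Acox2 did not pass, and Hsd3b7 was listed at 0 in all 6 libraries. Log2 changes set CDAHFD over normal diet. Their standard error is derived from edgeR's test statistic, with 3 libraries per diet and a spread moderated across genes. Levels of 1 gene are given as CPM, its count scaled to a common library size by the TMM method.

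**Figure D1:**
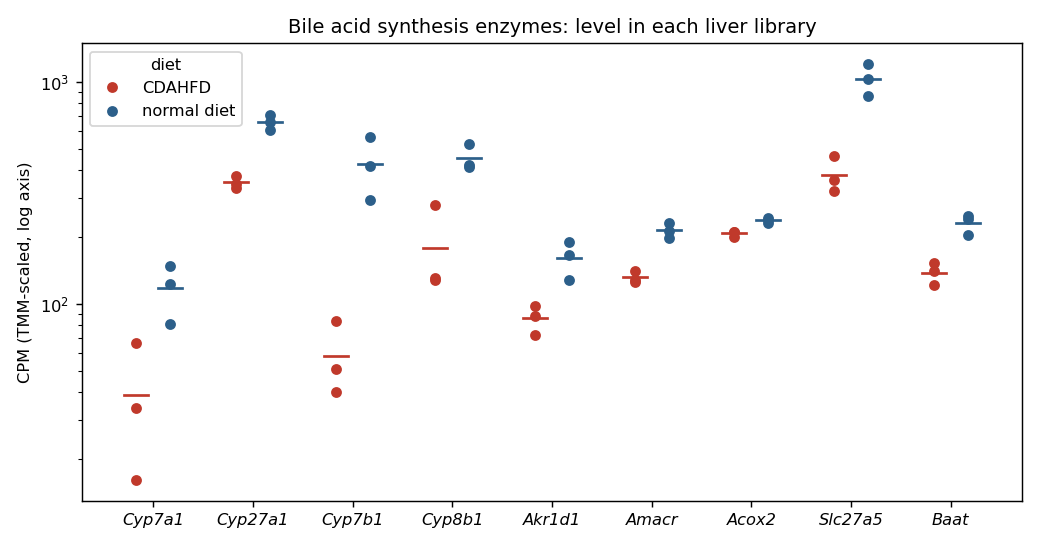
Level of the 9 counted enzyme genes in each library (points) with the mean of each diet (lines), as TMM-scaled CPM on a log axis, CDAHFD left of normal diet. Every gene has its 3 CDAHFD points below its 3 normal diet points, with the widest gap for Cyp7b1 and the narrowest for Acox2. CPM did not overlap between diets for 60.6% of all genes tested, 28.4% with CDAHFD lower. In the authors' TPM, Cyp7a1 and Acox2 overlapped between diets.

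Library depth ranged from 21986215 to 25628531 counts. Macrophage, stellate cell and fibroblast, bile duct and lymphocyte markers were higher on CDAHFD, with 7 of 8, 6 of 6, 5 of 5 and 4 of 5 tested genes called higher by edgeR. DESeq2 and limma-voom each called 3 lymphocyte markers higher. Of 4 endothelial markers, 0 were called by edgeR, DESeq2 or limma-voom (1 at an unadjusted p under 0.05). Summed macrophage markers lay at 1703 to 1796 CPM on CDAHFD and 358 to 485 CPM on normal diet. Of 10 hepatocyte markers 6, such as Alb and Apob, were called lower by edgeR and 4 did not pass, among them Trf and Ahsg at log2 changes of 0.30 and 0.13, while DESeq2 called 8 lower and 1 higher. The list had a median log2 change of -0.40 and a summed level of 120625 to 131501 CPM on CDAHFD against 153612 to 171801 CPM on normal diet. This separation depends on the TMM scaling. Of the 6 called lower, Alb, Apob and Ambp overlapped between diets in the authors' TPM, and Ttr, Apoh and Fgb stayed lower without overlap. Alb took 7.72% to 8.42% of all counts on CDAHFD and 8.26% to 9.69% on normal diet. No marker on these lists was at 0 in all libraries, and the part of the other cell types in the enzymes' values was not tested. In whole liver, fewer cells of a type and less RNA per cell cannot be told apart. Scaling the libraries to the summed hepatocyte markers left the same count of 8 enzyme genes lower and 0 higher, where 6.86% of all genes were lower and 43.8% higher. It moved the enzymes' median to -0.56 while that of all genes was 0.36. Most of this sum is Alb, with a mean of 73183 CPM on CDAHFD and 101296 CPM on normal diet. The medians were close to those with total counts, -0.59 and 0.34.

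Cyp7a1 (ENSMUSG00000028240), the gatekeeper of the main route, was at 34.1, 66.5 and 16.1 CPM in the CDAHFD libraries, against 123, 149 and 81.5 CPM in the normal diet libraries. Its CDAHFD libraries differed from each other more, relative to their mean, than those of any other enzyme gene. The groups did not overlap in CPM, as was so for 60.6% of all genes tested (28.4% with CDAHFD lower), but they did in the authors' TPM, where CDAHFD replicate 2 had 48.2 TPM and normal diet replicate 3 had 46.1 TPM. The change was -1.60 ± 0.39, a 3.02-fold fall (adjusted p = 0.00506). With 1 library left out it lay between -1.25, without CDAHFD replicate 3, and -2.26, without CDAHFD replicate 2.

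Both genes of the alternative route fell, and the change of Cyp7b1 was the larger. Cyp7b1 (ENSMUSG00000039519), the oxysterol hydroxylase, had 40.1, 83.6 and 51.1 CPM on CDAHFD, against 416, 295 and 566 CPM on normal diet. Its highest CDAHFD library was far below its lowest normal diet library, and its fall of 7.30-fold (-2.87 ± 0.28, adjusted p = 9.43e-06) was the largest among the enzymes. Cyp27a1 (ENSMUSG00000026170), which is also expressed in macrophages, had 348, 377 and 332 CPM on CDAHFD, against 712, 606 and 662 CPM on normal diet. The libraries of each diet lay close together, and the change was -0.91 ± 0.11 (adjusted p = 5.51e-05).

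The ratio of these genes within a library does not depend on how libraries are scaled. Cyp7b1 stood at 0.116, 0.223 and 0.155 of Cyp27a1 in TPM, a length-corrected abundance, on CDAHFD and at 0.586, 0.488 and 0.858 of it on normal diet. All 3 CDAHFD ratios were lower, by 1.98 on the log2 scale (exact two-sided permutation p = 0.1, the smallest that 3 against 3 libraries allow, adjusted p = 0.25 over 5 ratios). The ratio of Cyp7b1 to Cyp7a1 averaged 3.60 ± 2.18 on CDAHFD and 7.90 ± 4.93 on normal diet (SD, n = 3 each), and that of Cyp27a1 to Cyp7a1 averaged 23.3 ± 14.7 on CDAHFD and 11.5 ± 3.91 on normal diet. Both overlapped between diets, with exact permutation p = 0.2 (adjusted 0.333) and 0.3 (adjusted 0.375).

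**Figure D2:**
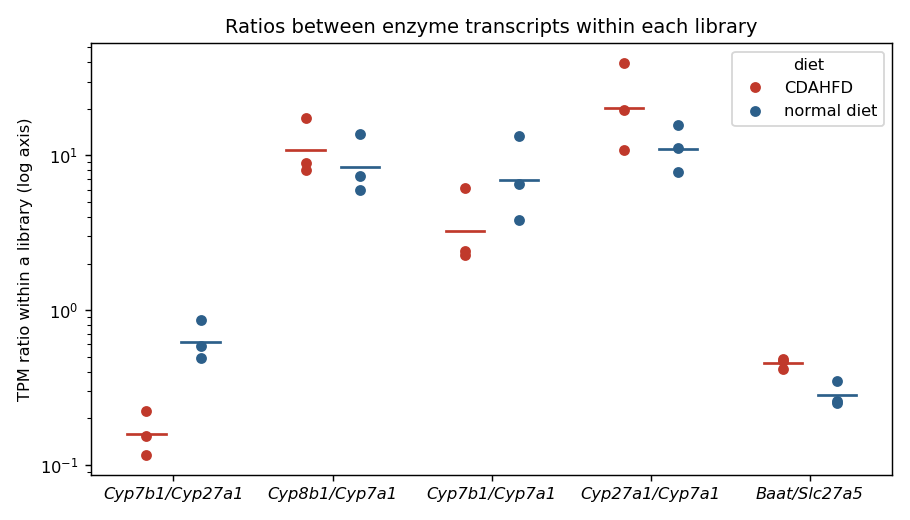
TPM ratio of 5 pairs of enzyme genes within each library (points) with the geometric mean of each diet (lines), on a log axis, CDAHFD left of normal diet. The diets are separate for Cyp7b1 over Cyp27a1, lower on CDAHFD, and for Baat over Slc27a5, higher on CDAHFD, and overlap for the other pairs.

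Among the ring-modifying enzymes, Cyp8b1 fell the most. Cyp8b1 (ENSMUSG00000050445), the hydroxylase that steers synthesis towards cholic acid, had 128, 277 and 131 CPM on CDAHFD, against 424, 413 and 526 CPM on normal diet. CDAHFD replicate 2 again held more than the other CDAHFD libraries but less than any normal diet library. The change was -1.35 ± 0.26 (adjusted p = 0.00116). Synthesis itself was not measured. The RNA ratio of Cyp8b1 to Cyp7a1 was 8.01, 8.93 and 17.4 in TPM on CDAHFD and 7.37, 5.93 and 13.8 on normal diet. These overlapped between diets (log2 difference 0.35, exact permutation p = 0.5, adjusted 0.5), and the difference was -0.00035 without CDAHFD replicate 3. Akr1d1 (ENSMUSG00000038641), the reductase that sets the bent ring shape of bile acids, had 88.1, 97.5 and 72.5 CPM on CDAHFD, against 165, 190 and 128 CPM on normal diet. All CDAHFD libraries lay lower, with a change of -0.91 ± 0.16 (adjusted p = 0.000547).

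Hsd3b7 (ENSMUSG00000042289), the dehydrogenase that acts after the first hydroxylation, had 0 counts in each of the 6 libraries and was not tested. In the GENCODE M21 annotation its exons overlap on the same strand those of another gene, Gm49388, which was also listed at 0 throughout. None of the other 9 enzyme genes shares exons with another gene on its strand there. The part of this overlap in the value of 0 was not tested, and the value is not a measure of Hsd3b7 RNA in these livers.

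Sequence upstream of the start site was at hand for 5 of the 10 genes, from RefSeq on GRCm38.p6. The 250 bases before the start are shown for the 3 of these that fell, because Cyp8b1 has matches to sites of factors known to act on this pathway and the others differ from it. Capitals mark matches to any of 5 motifs searched on both strands. AGGTCA is a half-site of nuclear receptors, CAAGGNCA the type of site bound by LRH-1, the product of Nr5a2, and CAAAGNNCA the type bound by HNF4A. The letters GTTAAT are part of the site of HNF1. The core promoter motif TATAAA lies near the start of some genes. A match is a description of the letters only.
Cyp8b1, chr9:121916306-121916555, minus strand: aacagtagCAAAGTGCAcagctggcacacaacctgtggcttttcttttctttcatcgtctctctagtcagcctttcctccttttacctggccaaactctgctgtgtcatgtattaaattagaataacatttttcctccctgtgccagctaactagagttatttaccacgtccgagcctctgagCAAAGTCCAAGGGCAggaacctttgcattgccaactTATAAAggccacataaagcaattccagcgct
Akr1d1, chr6:37529923-37530172, plus strand: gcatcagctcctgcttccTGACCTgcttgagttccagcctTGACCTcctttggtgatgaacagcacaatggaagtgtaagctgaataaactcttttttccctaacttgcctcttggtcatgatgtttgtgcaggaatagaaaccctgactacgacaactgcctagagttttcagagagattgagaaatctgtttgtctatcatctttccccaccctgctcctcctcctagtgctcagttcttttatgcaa
Cyp27a1, chr1:74713285-74713534, plus strand: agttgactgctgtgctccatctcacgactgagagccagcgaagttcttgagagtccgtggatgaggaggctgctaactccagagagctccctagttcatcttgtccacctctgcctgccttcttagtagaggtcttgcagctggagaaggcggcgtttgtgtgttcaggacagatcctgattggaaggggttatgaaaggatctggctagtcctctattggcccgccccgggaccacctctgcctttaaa

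The Cyp8b1 window held an HNF4 type match 67 to 59 bases before the start that overlaps an LRH-1 type match at 60 to 53 bases, another HNF4 type match at 242 to 234 bases, and the core promoter motif at 31 to 26 bases. HNF4 type matches occur in 5.51% of the 32536 distinct upstream windows of this length, LRH-1 type matches in 5.54% and TATAAA in 12.3%. The Akr1d1 window had AGGTCA on its minus strand at 232 to 227 and at 210 to 205 bases, a motif present in 14.0% of windows. GTTAAT, found in 6.47% of windows, was in none of these 3, and the Cyp27a1 window held none of the 5 motifs, as was so for both windows of Acox2. The remaining window at hand, that of Hsd3b7, had an HNF4 type match on its minus strand at 133 to 125 bases.

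Of the counted enzyme genes, Acox2 and Amacr had the smallest changes, that of Amacr close to that of Baat. Amacr (ENSMUSG00000022244), the racemase that prepares the side chain for oxidation, had 126, 141 and 128 CPM on CDAHFD, against 231, 199 and 214 CPM on normal diet. The replicates were tight and separate, with a change of -0.71 ± 0.11 (adjusted p = 0.00024). Acox2 (ENSMUSG00000021751), the oxidase of that side chain, had 212, 200 and 211 CPM on CDAHFD, against 238, 244 and 232 CPM on normal diet. Although its CPM did not overlap, its change of -0.20 ± 0.10 did not pass (adjusted p = 0.113), and it was 0.13 with total counts and 0.17 on the authors' TPM.

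Slc27a5 (ENSMUSG00000030382), the bile acid ligase, had 322, 461 and 363 CPM on CDAHFD, against 1200, 863 and 1029 CPM on normal diet. Every CDAHFD library held less than every normal diet library, a change of -1.43 ± 0.16 (adjusted p = 2.65e-05). Baat (ENSMUSG00000039653), the transferase that adds the amino acid, had 121, 153 and 140 CPM on CDAHFD, against 248, 241 and 205 CPM on normal diet. Its change of -0.74 ± 0.12 (adjusted p = 0.000431) was smaller than that of the ligase. Baat therefore stood higher relative to Slc27a5 in each CDAHFD library, at 0.472, 0.417 and 0.486 in TPM, against 0.259, 0.350 and 0.251 on normal diet (log2 difference 0.69, exact permutation p = 0.1, adjusted 0.25).

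**Figure D3:**
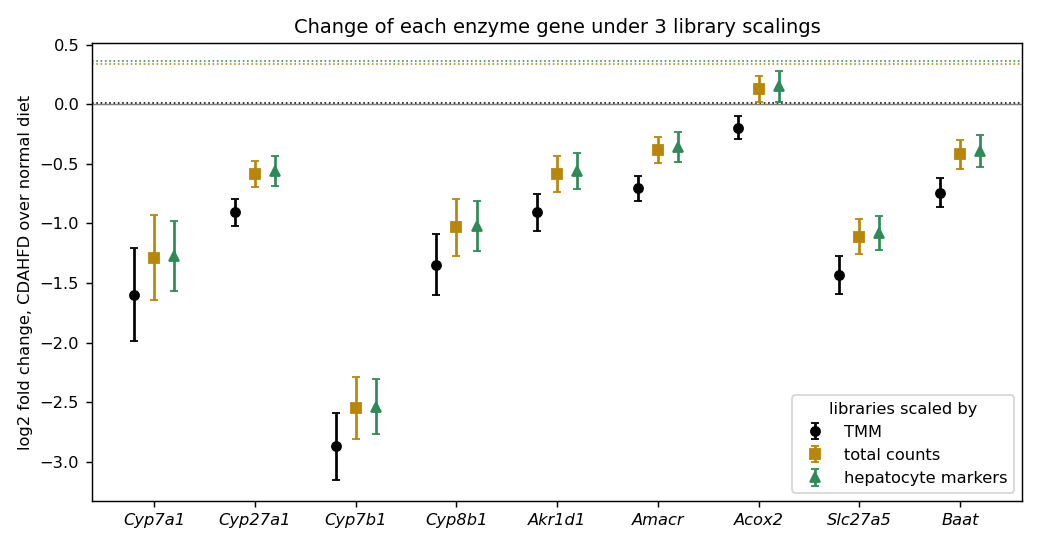
Log2 fold change of each enzyme gene, CDAHFD over normal diet, with its standard error, for libraries scaled by TMM, by total counts and to the hepatocyte markers. Dotted lines mark the median of all genes tested, at 0.013, 0.34 and 0.36, and all points but those of Acox2 with total counts and hepatocyte markers lie below 0.

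The scaling of the libraries changed the size of the 8 falls and not their direction. With total counts the enzymes' median was -0.59 and that of all genes 0.34, and again 8 enzyme genes were lower and 0 higher, where 8.08% of all genes were lower and 44% higher. Under hepatocyte marker scaling Cyp7b1 changed by -2.53 ± 0.23, Cyp7a1 by -1.27 ± 0.29, Slc27a5 by -1.08 ± 0.14 and Cyp8b1 by -1.02 ± 0.21. Amacr was at -0.36 ± 0.13 (adjusted p = 0.0242) and Baat at -0.39 ± 0.13 (adjusted p = 0.0192) there, the nearest to the threshold among those called.

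Per length, the order of the enzymes changed between diets. The 10 genes summed to 2038 ± 281 TPM on CDAHFD and 3642 ± 166 TPM on normal diet (SD, n = 3 each). On CDAHFD the order by mean TPM was Cyp27a1 (506), Slc27a5 (488), Cyp8b1 (284), Baat (222), Acox2 (175), Amacr (158), Akr1d1 (92.7), Cyp7b1 (83.5) and Cyp7a1 (28.8). Values overlapped there between Cyp27a1 and Slc27a5, Slc27a5 and Cyp8b1, Cyp8b1 and Baat, Acox2 and Amacr, and Akr1d1 and Cyp7b1. On normal diet it was Slc27a5 (1021), Cyp27a1 (735), Cyp8b1 (564), Cyp7b1 (473), Baat (289), Amacr (199), Acox2 (156), Akr1d1 (136) and Cyp7a1 (69.0 TPM). Only the neighbours Cyp8b1 and Cyp7b1, and Acox2 and Akr1d1, overlapped there. Cyp7a1 was the least abundant counted enzyme on both diets.

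As a share of the enzymes' summed TPM, Cyp7b1 made up 4.02% ± 0.89 on CDAHFD and 12.9% ± 3.35 on normal diet (SD, n = 3 each). Slc27a5 was the other enzyme whose share was lower without overlap, at 23.9% ± 1.10 on CDAHFD and 28.0% ± 2.48 on normal diet. The shares of Cyp27a1, Amacr, Acox2 and Baat were higher without overlap. That of Acox2 was 8.75% ± 1.58 on CDAHFD and 4.30% ± 0.52 on normal diet, and that of Cyp27a1 was 25.0% ± 2.65 on CDAHFD and 20.2% ± 0.71 on normal diet. Cyp7a1, Cyp8b1 and Akr1d1 overlapped between diets in their shares. A share rises when other enzymes fall more, so a higher share is no rise of the gene itself.

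**Figure D4:**
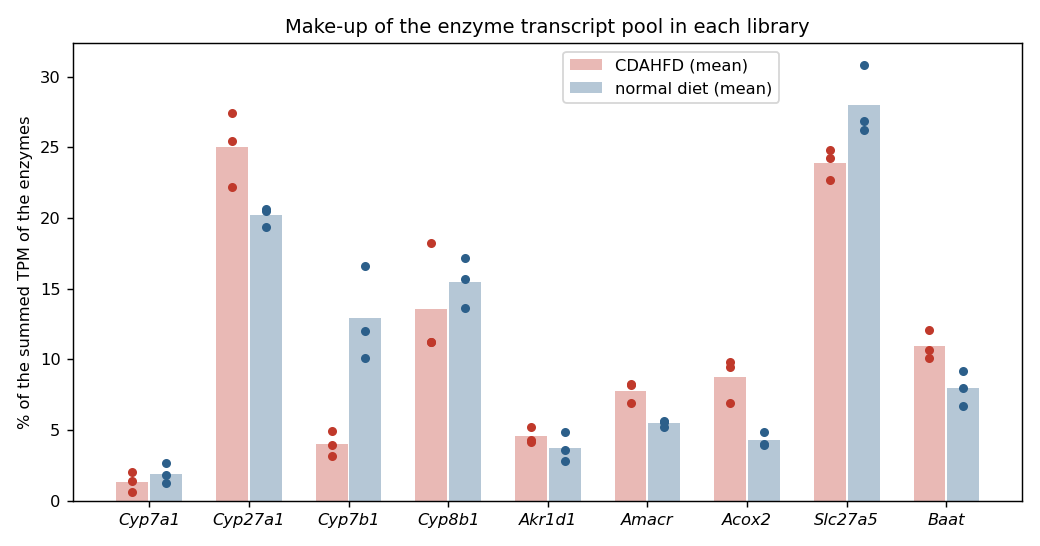
Share of each enzyme in the summed TPM of the enzymes in a library (points, %), with bars at the mean of each diet, CDAHFD left of normal diet. Cyp7b1 has the clearest drop, to 4.02% on CDAHFD against 12.9% on normal diet, and Cyp27a1, Amacr, Acox2 and Baat have higher shares on CDAHFD.

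Other genes of the pathway moved mostly the same way. Of 16 tested genes for further synthesis enzymes and their suppliers of electrons or cholesterol, 12 fell, 2 rose and 2 did not pass, with a median of -0.58, where 23.5% of all genes tested were lower and 28.5% higher. With total counts (8.08% of all genes lower and 44% higher) and with hepatocyte markers (6.86% lower and 43.8% higher) the counts were 7 lower and 3 higher. Akr1c14, an aldo-keto reductase, fell by 1.45 ± 0.18 (adjusted p = 4.70e-05), and Abcd3, which brings bile acid precursors into peroxisomes, fell by 1.29 ± 0.12 (adjusted p = 6.03e-06). In the peroxisome, Scp2 and Hsd17b4, which act on the side chain after ACOX2 and were picked out after their values were seen, fell by 0.87 ± 0.14 (adjusted p = 0.000314) and 0.68 ± 0.10 (adjusted p = 0.000249).

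The genes that rose were Cyp39a1 and Acnat2. Cyp39a1, another oxysterol hydroxylase, had 67.8, 51.5 and 56.2 CPM on CDAHFD, against 43.8, 41.5 and 32.3 CPM on normal diet, a rise of 0.58 ± 0.14 (adjusted p = 0.0051). Acnat2, a peroxisomal acyltransferase of the Baat family, had 27.6, 28.6 and 41.8 CPM on CDAHFD, against 12.2, 16.2 and 3.85 CPM on normal diet, a rise of 1.60 ± 0.36 (adjusted p = 0.00322). Its close paralog Acnat1, on the same list, was called lower with TMM scaling (-0.61 ± 0.14, adjusted p = 0.00354). In the authors' TPM Acnat1 overlapped between diets, and reads may be split between the paralogs. Cyp46a1, a cholesterol hydroxylase known mainly from brain, was at only 1.01, 0.75 and 0.584 CPM on CDAHFD, against 2.36, 1.62 and 1.80 CPM on normal diet (-1.30 ± 0.30, adjusted p = 0.00397, and -0.47 on log2(TPM + 1)). The thioesterase gene Acot8 (-0.17 ± 0.17, adjusted p = 0.438) and Fdxr, the ferredoxin reductase of mitochondrial P450s (0.26 ± 0.16, adjusted p = 0.204), did not pass, and Fdxr was called higher at 0.58 with total counts.

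Bile acids repress their own synthesis through FXR (Nr1h4) and its target SHP (Nr0b2) in the liver, and through intestinal FGF15 acting on FGFR4 with its co-receptor beta-Klotho (Klb). Of 13 regulators tested, 8 fell and 5 did not pass by edgeR, with a median of -0.54, and 0 rose (0 also at an unadjusted p under 0.05, with DESeq2 and with limma-voom), beside 23.5% of all genes lower and 28.5% higher. However, only 3 were lower with total counts (8.08% of all genes) and 2 with hepatocyte markers (6.86%), with 2 higher in each (44% and 43.8% of all genes). Klb had 17.5, 16.6 and 17.4 CPM on CDAHFD, against 39.6, 39.2 and 33.8 CPM on normal diet (-1.13 ± 0.11, adjusted p = 9.10e-06). Nr1h4 had 89.1, 112 and 81.3 CPM on CDAHFD, against 177, 210 and 210 CPM on normal diet (-1.08 ± 0.13, adjusted p = 5.75e-05). Both fell with hepatocyte marker scaling too. Ppara and Hnf4a, nuclear receptors of fatty acid use and hepatocyte identity, fell by 0.62 ± 0.10 and 0.59 ± 0.11, calls that ended under hepatocyte marker scaling (adjusted p = 0.0792 and 0.135). Nr0b2 (-0.50 ± 0.22, adjusted p = 0.0812), Rxra (-0.29 ± 0.12, adjusted p = 0.0545), Fgfr4 (-0.10 ± 0.10, adjusted p = 0.454), Nr1h3, the gene of LXR alpha (0.024 ± 0.10, adjusted p = 0.856), and Mafg, a repressor of synthesis genes (0.066 ± 0.10, adjusted p = 0.614), did not pass. With hepatocyte marker scaling Nr1h3 and Mafg were called higher, at 0.37 and 0.41.

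**Figure D5:**
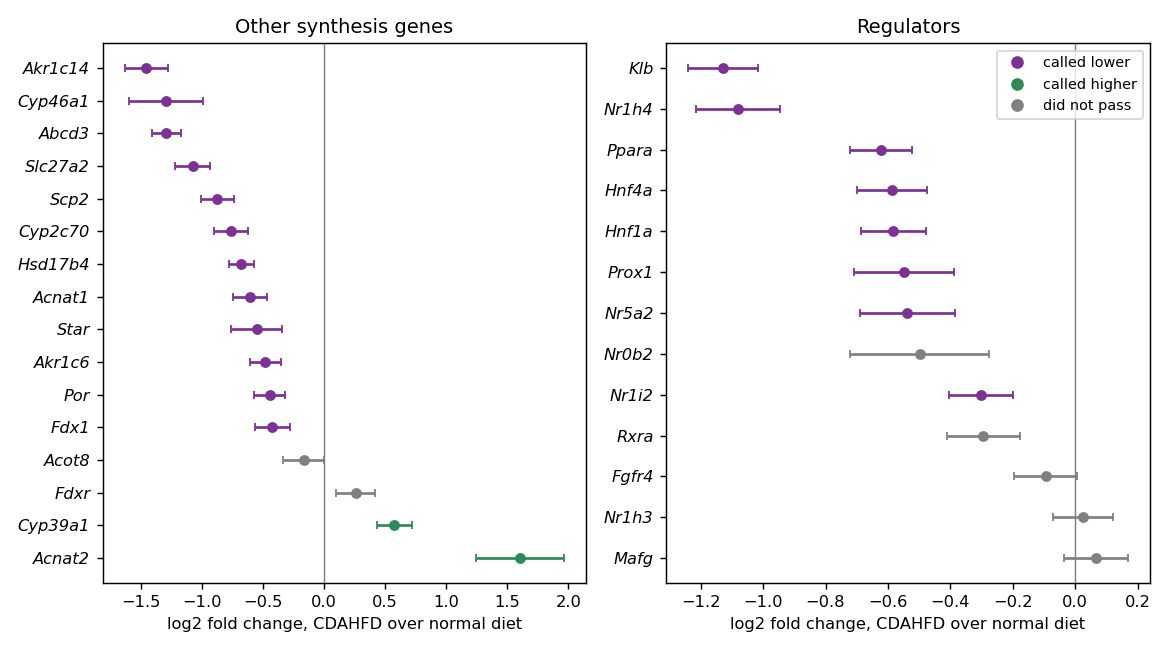
Log2 fold change, CDAHFD over normal diet, with its standard error for 16 other synthesis genes and 13 regulators, TMM scaling, coloured by the call at an adjusted p of 0.05. Akr1c14 lies lowest of the synthesis genes and Klb of the regulators, and Acnat2 and Cyp39a1 are the genes called higher.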

How the data were processed

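Liver RNA of 3 CDAHFD and 3 normal diet samples was sequenced as stranded poly(A) libraries, per the labels' protocols. STAR 2.7.11a and GRCm39 appear in the submitters' processing notes, without a counting tool, annotation or strand setting. The authors deposited raw counts per Ensembl gene and TPM, whose gene lengths are not given. Columns beginning with CD were read as CDAHFD and those with ND as normal diet. The promoter sequences are of GRCm38.p6.

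Symbols were matched through a gene name table. Genes were kept by filterByExpr (minimum count 10), which left 14215, scaled by TMM and tested with edgeR 4.0.16 in R 4.3.3 (quasi-likelihood, diet as the only term, Benjamini-Hochberg over all genes, threshold 0.05). The same steps were also run on simulated data with few changed genes, balanced up and down. Such data cannot probe how the results depend on scaling. Within a diet, libraries differed by more than sampling noise (chi-square per degree of freedom of 19.1 to 43.4).

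The members and lists were chosen with earlier results of these data known. Named genes are the 10 members. From the lists of other enzymes and of regulators they are up to 4 called genes with the largest change, the most abundant that did not pass, and all of any count of 5 or fewer. From the clock and male-biased lists they are the 2 largest changes called. Scp2, Hsd17b4, Mup20, Arntl and Npas2 were added after their values were seen. A planned naming of genes with like patterns is not reported, because the libraries fall into 2 clusters by diet, and protein sequences were not used here. Alternatives were other scalings and filters, DESeq2 1.42.0, limma 3.58.1 (voom, and log2 TPM with 1 or 0.1 added), a replicate block and each library left out.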

Additional observations from a re-analysis of the deposited data

How the results depend on the processing

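The count of 8 enzyme genes lower and 0 higher was the same under all 17 alternatives, and each of the 8 stayed lower and called in each. Among the other named genes and Acox2, several signs turned with scaling, where the median of all genes moved to 0.34 (total counts) and 0.36 (hepatocyte markers). With total counts, hepatocyte markers, log2(TPM + 1) and log2(TPM + 0.1), in that order, Acox2 was at 0.13, 0.15, 0.168 and 0.169, Acot8 at 0.16, 0.18, 0.21 and 0.22, Rxra at 0.028, 0.050, 0.0785 and 0.0788, and Fgfr4 at 0.23, 0.25, 0.26 and 0.27, none of them called. The count of called regulators was 5 with total counts, 4 with hepatocyte markers and 4 on both TPM scales, against 8 with TMM. With 1 library left out, Nr1h3 lay between -0.020 and 0.047, Mafg between -0.029 and 0.10, and the log2 difference of the Cyp8b1 to Cyp7a1 ratio between -0.00035 and 0.70, and that of Cyp27a1 to Cyp7a1 between 0.40 and 1.33. Nr0b2, not called with TMM, was called lower at -0.52 with DESeq2, at -0.50 with no filter, at -0.51 with the replicate block and at -0.62 without normal diet replicate 3, and Rxra at -0.31 with RLE and DESeq2 and at -0.38 without normal diet replicate 2. The split of all calls was 4057 higher and 3347 lower with TMM, 6249 and 1149 with total counts, and 6222 and 975 with hepatocyte markers. Whether the replicate numbers pair the libraries is not in the labels, and the deviations do not decide it. Correlations of same-numbered deviations were -0.062, 0.076 and 0.15, and those of different numbers lay between -0.18 and 0.13. CDAHFD replicates 2 and 3 were nearest to their own number, and CDAHFD replicate 1 was not. With the replicate block 8 enzyme genes, 13 other enzymes and 9 regulators were called, and Cyp7a1 changed by -1.77 ± 0.19. The 9 counted enzyme genes had at least 414 counts in every library.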

Other observations

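Cyp7b1 is known as a gene with higher expression in male than in female mouse liver, under growth hormone control. Of 6 other genes known for this in mouse, 5 fell and 1 did not pass, with a median log2 change of -2.51, where 23.5% of all genes tested were lower. This list was written with earlier results of these data known, and genes higher in females were not examined. The steroid dehydrogenase gene Hsd3b5 had 3.48, 28.1 and 9.23 CPM on CDAHFD, against 263, 201 and 364 CPM on normal diet (edgeR, -4.33 ± 0.56, adjusted p = 7.80e-05, and -5.48 without CDAHFD replicate 2). Cyp4a12a fell by 3.04 ± 0.22 (edgeR, adjusted p = 1.04e-06). Mup20, picked out after its values were seen, did not pass (0.37 ± 0.18, edgeR adjusted p = 0.0983) but was called higher with total counts, at 0.70. Hsd3b5, Cyp4a12a and Mup20 belong to families of closely similar copies, so their single values are uncertain. The labels do not give the animals' sex.

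Cyp7a1 is known to cycle over the day. Of 13 clock genes tested, 7 fell, 0 rose and 6 did not pass by edgeR, with a median of -0.34, where 23.5% of all genes tested were lower. At an unadjusted p under 0.05, or with DESeq2 or limma-voom, 0 rose. Arntl and Npas2, picked out after their values were seen, were higher on CDAHFD without overlap in TPM. Arntl, at a mean of 1.55 CPM on CDAHFD and 1.00 CPM on normal diet, did not pass (0.63 ± 0.32, edgeR adjusted p = 0.124). Npas2 had too few counts to be tested, and the other genes that did not pass had negative changes. Clock, Per1, Cry2 and Nr1d2, which are among the 7, overlapped between diets in TPM. Ciart fell by 0.97 ± 0.16 (edgeR, adjusted p = 0.000353) and Hlf, a clock output factor, by 0.95 ± 0.13 (edgeR, adjusted p = 0.000144). The time of tissue collection is not in the labels, and its part in the level of Cyp7a1 was not tested.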
